A study of Luffa aegyptiaca with 4 samples.

Results

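LOX8, LOX9, LOX11 and LOX15 are 4 lipoxygenase transcripts of Luffa aegyptiaca, the sponge gourd, that were present in control samples and close to or at 0 under heat stress. They were chosen from the 29 transcripts named as lipoxygenases by their measured levels: a mean of at least 4 FPKM in the controls and a mean under 0.5 FPKM under heat. FPKM count sequenced fragments relative to transcript length and to the size of the library, so levels of different transcripts can be set side by side. The whole table had 48619 transcripts. Because the fall under heat chose these 4, that fall is described below with no test.

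Transcript levels were measured by RNA-seq in 2 heat-stressed and 2 control samples, which the labels number as biological replicates 1 and 2 of each group. The labels call the material only tissue, and give no organ, cultivar or age, and no temperature or duration of the heat. Whether each replicate was a plant of its own is not stated. An organ check against marker genes was not possible, since no transcript outside the lipoxygenases carries a name.

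Lipoxygenases insert molecular oxygen into polyunsaturated fatty acids such as linoleic and linolenic acid. The fatty acid hydroperoxides they make are the starting point of the oxylipins, which include the wound and defence hormone jasmonic acid, green leaf volatiles and divinyl ethers. Plant lipoxygenases differ in the carbon they oxygenate, and only part of the family feeds jasmonate synthesis, which begins in plastids. Cucurbits, the family of sponge gourd, cucumber and melon, carry many lipoxygenase genes, often in tandem clusters. The sources used here give no subfamily, gene cluster, protein sequence or genome position for the 4, and no role is given to a single one of them.

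Summed FPKM lay between 551921 and 599611 over the 4 libraries, and between 22556 and 24068 transcripts were above 0. Read depth is unknown. Pearson's r of log2(FPKM + 1) across the 18186 transcripts that averaged 1 FPKM or more was 0.976 between the heat libraries and 0.987 between the controls. It was 0.578 to 0.603 for pairs of a heat and a control library. The 4 lipoxygenases thus belong to a transcriptome that differed widely between the groups. These correlations are across transcripts, which are not independent replicates.

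LOX15 was the most abundant of the 4. Laeg_LOX15.t01 was listed at 0 in both heat libraries, against 21.9 and 16.1 FPKM in control replicates 1 and 2. LOX11 had the same form at a lower level: Laeg_LOX11.t01 was listed at 0 in both heat libraries, against 7.25 and 7.32 FPKM in the controls. The groups did not overlap for either transcript, but the limits of selection leave little room for overlap, so nothing is read from this. How many of all transcripts lacked overlap was not counted. Since a 0 in such a table may stand for an estimate that failed rather than for absence, no fold is given for LOX11 or LOX15. In samples of whole tissue, fewer cells that express a transcript and less RNA per cell cannot be told apart.

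LOX8 and LOX9 kept a trace under heat. Under heat, Laeg_LOX8.t01 had 0.064 FPKM in replicate 2 and was listed at 0 in replicate 1, against 4.55 and 4.18 FPKM in the controls. Its mean under heat, 0.032 ± 0.0453 FPKM (SD, n = 2), was 0.733% of its control mean of 4.36 ± 0.255 FPKM (SD, n = 2), and that share rests on the value of heat replicate 2. Laeg_LOX9.t01 was above 0 in every library, at 0.332 and 0.221 FPKM in heat replicates 1 and 2, against 5.02 and 5.37 FPKM in the controls. Its mean under heat, 0.276 ± 0.0788 FPKM, was 5.32% of its control mean of 5.19 ± 0.244 FPKM (SD, n = 2 each). Neither transcript overlapped between the groups, but here too the limits of selection leave little room for overlap, and nothing is read from this.

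**Figure D1:**
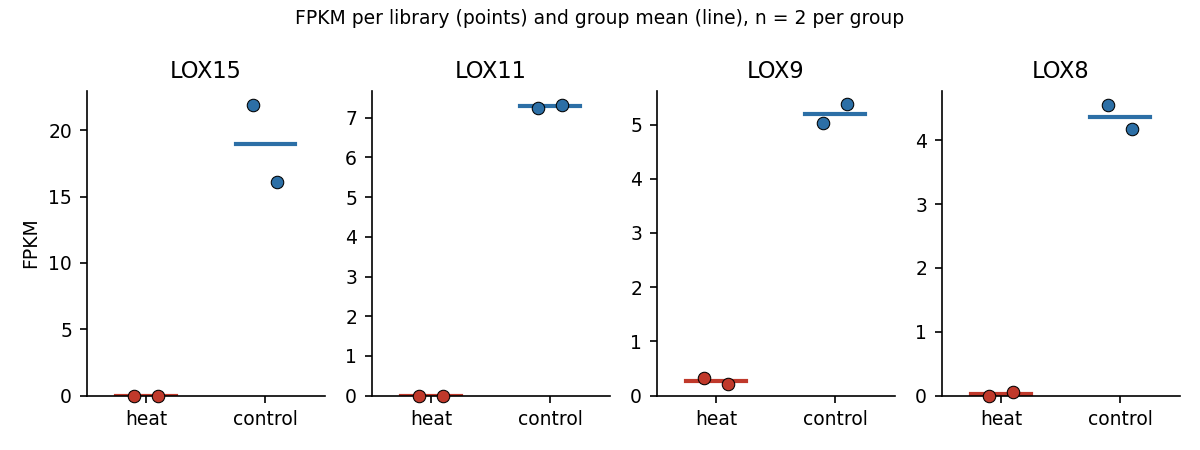
FPKM of LOX15, LOX11, LOX9 and LOX8 in each library (points), with the group mean as a line and 2 libraries per group, each panel on its own linear axis. LOX15 and LOX11 lie at 0 in both heat libraries, LOX8 has a single heat value above 0 (0.064 FPKM), and LOX9 lies at 0.332 and 0.221 FPKM under heat.

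The traces are among the low values of their libraries. In heat replicate 2, 3.35% of the 24068 transcripts above 0 had a smaller value than LOX8, and 11.3% had a smaller value than LOX9. In heat replicate 1, 15% of the 23562 transcripts above 0 had a smaller value than LOX9. The heat replicates did not differ in the same direction for both: LOX8 was higher in replicate 2 and LOX9 in replicate 1.

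The 4 transcripts kept 1 order in both control libraries, with LOX15 highest, then LOX11, LOX9 and LOX8. Their values in the controls did not overlap with each other. Within the whole family, ranked by control mean, LOX15 was number 3, after LOX12 (93.1 ± 0.823 FPKM) and LOX14 (68.1 ± 9.29 FPKM; SD, n = 2 each). LOX11, LOX9 and LOX8 were numbers 8, 9 and 10. LOX11 followed LOX5, whose control mean was higher by 0.525 FPKM, close to the SD of 0.475 FPKM of LOX5, so the order of this pair is weakly resolved. LOX15 stood 5.57 FPKM above LOX2, the next lower member, beside its own SD of 4.05 FPKM. The step from LOX11 to LOX9 was 2.09 FPKM and that from LOX9 to LOX8 was 0.83 FPKM, against SDs of at most 0.255 FPKM in each of these transcripts.

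Among all transcripts above 0 in the controls, LOX11, LOX9 and LOX8 lay near the middle and LOX15 lay higher. The selection itself required at least 4 FPKM in the controls. LOX15, at a mean of 19 FPKM, was exceeded by 5628 of the 23892 transcripts above 0 there, or 23.6%. The share that exceeded LOX11 was 44.8%, that for LOX9 was 51.5% and that for LOX8 was 54.2%.

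The thresholds that chose the 4 fall in gaps of different width. At the heat maximum, LOX9 lay just inside with a mean of 0.276 FPKM under heat, and LOX5 was the nearest outside among lipoxygenases with a control mean of at least 4 FPKM, with 1.6 FPKM under heat and 7.81 FPKM in control. At the control minimum, LOX8 lay just inside with a control mean of 4.36 FPKM. The highest member below that minimum with a heat mean under the maximum was LOX16, listed at 0 in both heat libraries and at a mean of 0.628 FPKM in control. LOX3 missed both limits and lay nearest to the heat maximum from above, with a mean of 0.538 FPKM under heat and 3.26 FPKM in control.

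Of the 13281 transcripts in the table with a control mean of at least 4 FPKM, 357 (2.69%) had a mean under 0.5 FPKM under heat. Among lipoxygenases the same limits gave 4 of 10. This is the count that the selection fixed, and nothing is read from it. The 357 had a median control mean of 6.91 FPKM and a median heat mean of 0.214 FPKM. By control mean, LOX15 was number 43 among them, LOX11 number 164, LOX9 number 261 and LOX8 number 317. Within this group LOX8 and LOX9 differed in their remaining level: 72 of the 357 had a lower heat mean than LOX8 and 212 a lower heat mean than LOX9.

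A value of 0 in both heat libraries was found for 65 of the 357 transcripts (18.2%), LOX11 and LOX15 included. These 65 had a median control mean of 7.02 FPKM, close to that of LOX11 (7.29 ± 0.0503 FPKM; SD, n = 2), and LOX11 ranked number 29 among them. LOX15 ranked number 8 by control mean, and the highest of the 65 had a mean of 194 FPKM. Over all 13281 transcripts the median share of the control mean left under heat was 74.1%. A smaller share than that of LOX8 was left in 0.813% of them, and a smaller share than that of LOX9 in 3.64%. The limits of selection allow only a small share to be left, so these low positions follow largely from them.

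**Figure D2:**
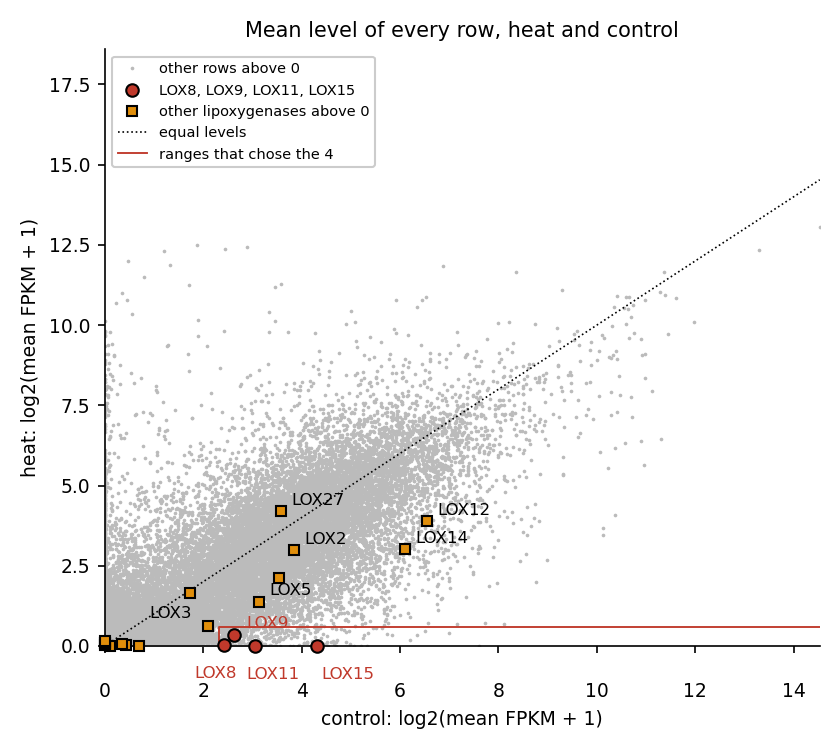
Mean level of every transcript above 0 in control (x axis) and under heat (y axis), both as log2(mean FPKM + 1), with lipoxygenases marked and the limits of selection drawn in red. LOX11 and LOX15 lie on the line of 0 under heat, LOX8 and LOX9 just above it, and LOX5 at 1.6 FPKM is the nearest lipoxygenase above the limit with at least 4 FPKM in control.

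The size of the fall depends on how values near 0 are treated. Taken as heat minus control on the log2(FPKM + 1) scale, the difference in means was -4.31 for LOX15, -3.05 for LOX11, -2.38 for LOX8 and -2.28 for LOX9, with standard errors of 0.19, 0.16, 0.17 and 0.17 in that order (limma fit to all 18186 transcripts). For LOX11 and LOX15 the values at 0 add no spread between the heat libraries, and these standard errors do not allow for failed estimates. The median of all transcripts in the fit was -0.20. Relative to it the changes were -4.11, -2.85, -2.18 and -2.08 in the same order. A lower change than that of LOX15 was found in 0.671% of the 18186 transcripts, and the share was 3.19% for LOX11, 6.9% for LOX8 and 7.71% for LOX9. These low positions too follow largely from the limits of selection.

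On that scale LOX8 and LOX9 moved less than the 2 dominant members of the family, LOX12 and LOX14. LOX11, at -3.05, moved about as much as LOX14. LOX12 changed by -2.67 and LOX14 by -3.10, although 14.8% and 10.4% of their control means were left under heat, more than the 5.32% of LOX9. Adding 1 compresses a fall to 0 from levels such as those of LOX8 and LOX9. With 0.1 added in place of 1, the 4 lipoxygenases had the lowest changes of the 12 in the fit: LOX15 at -7.56, LOX11 at -6.21, LOX8 at -5.12 and LOX9 at -3.83, followed by LOX14 at -3.25 and LOX12 at -2.75. For LOX11 and LOX15, and in part for LOX8, these values are set by the number added, and are no measure of a fold. That the 4 precede the others in this order follows largely from the limits of selection.

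**Figure D3:**
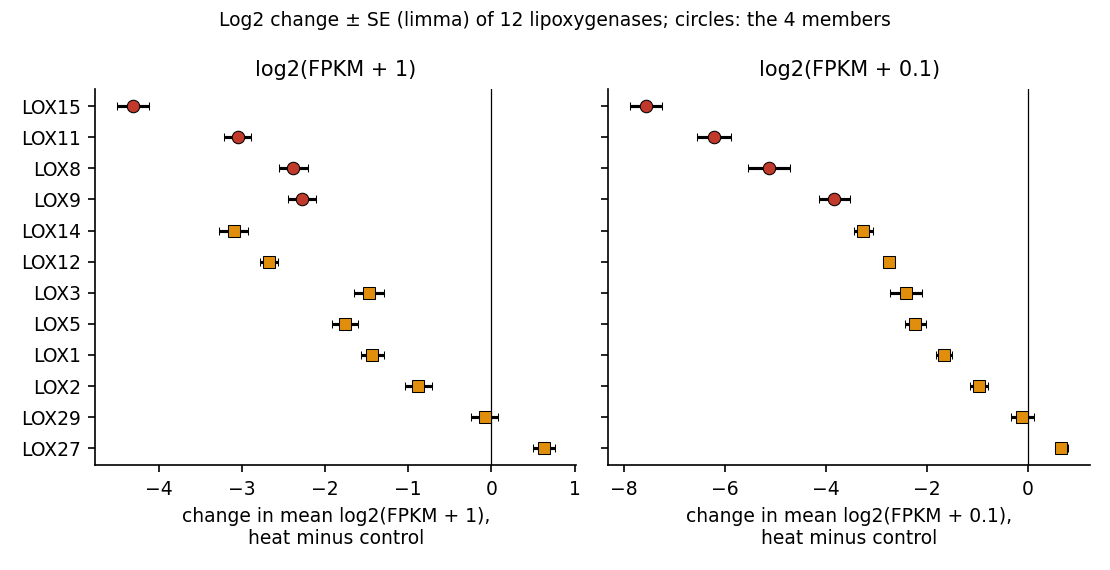
Log2 change, heat minus control, with its standard error from the limma fit, for the 12 lipoxygenases with a mean of at least 1 FPKM, with 1 (left) or 0.1 (right) added to FPKM. LOX14 at -3.10 and LOX12 at -2.67 lie left of LOX8 and LOX9 in the left panel, and LOX14 lies beside LOX11, at -3.05. In the right panel LOX14 and LOX12 lie right of all 4 circles, with LOX9 at -3.83.

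Together the 4 held a modest part of the family's transcripts. Their summed FPKM was 0.332 and 0.285 in heat replicates 1 and 2, against 38.7 and 33 in control replicates 1 and 2. As a share of all 29 lipoxygenases this was 0.638% and 0.518% under heat, against 16.1% and 13.1% in control. LOX15 alone made up 9.09% and 6.39% of the family in the controls, LOX11 3.01% and 2.9%, LOX9 2.09% and 2.12%, and LOX8 1.89% and 1.66%. The sum of the 4 under heat, 0.308 ± 0.0336 FPKM, was 0.86% of its control value of 35.9 ± 4.01 FPKM (SD, n = 2 each). The sum of the other 25 under heat, 53.2 ± 2.09 FPKM, was 25.2% of its control value of 211 ± 12.7 FPKM (SD, n = 2 each). Most of that control value lay in LOX12 and LOX14, with means of 93.1 and 68.1 FPKM in control and 13.8 and 7.1 FPKM under heat. That 25.2% therefore does not describe each of the 25, and LOX27 rose from a mean of 10.9 to 17.5 FPKM. The 4 accounted for 18.4% of the family's fall in summed FPKM. These sums follow from the selection of the 4 and were not tested.

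**Figure D4:**
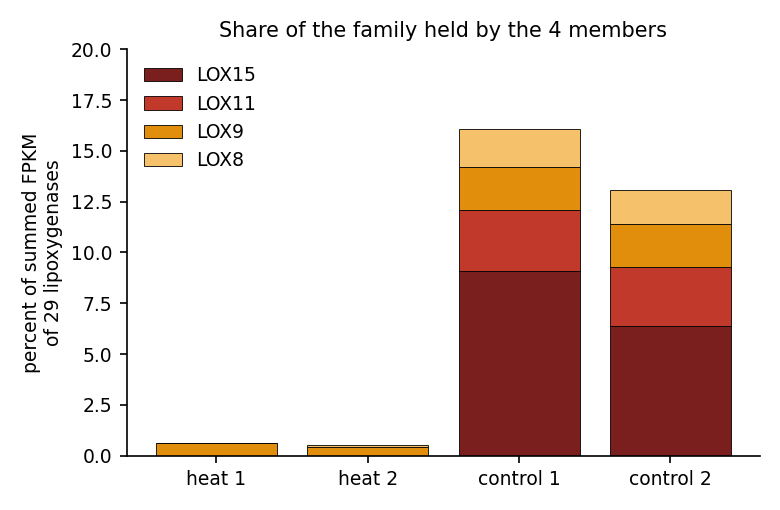
Share of the summed FPKM of all 29 lipoxygenases held by LOX15, LOX11, LOX9 and LOX8 in each library, as stacked bars from 0. The 4 reach 0.638% and 0.518% in the heat libraries and 16.1% and 13.1% in the controls, where LOX15 is the thickest layer.

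The other lipoxygenases stand beside the 4 as the only named part of the pathway. Of the other 25, 9 were listed at 0 in every library and 8 had a mean of at least 1 FPKM and were tested. Of these 8, 6 fell, against 42.5% of all transcripts tested, and LOX27 rose, against 30.9% of all transcripts tested (limma, Benjamini-Hochberg adjusted p at most 0.05). LOX3, 1 of the 6, passed the abundance filter only through its control level, with means of 3.26 FPKM in control and 0.538 FPKM under heat. LOX29 was not called in either direction, at a log2 change of -0.08 (SE 0.16). The call of LOX27 was lost without control replicate 1 (limma, adjusted p = 0.0639), and that of LOX2, counted among the 6, without control replicate 2 (limma, adjusted p = 0.0533). In the other alternatives that left out a library or changed the scaling, pseudocount, block or trend, the adjusted p ran from 0.00124 to 0.0392 for LOX27 and from 0.00171 to 0.0306 for LOX2. The median log2 change of the 8 was -1.45, against -0.20 over all transcripts tested. No other enzyme of the oxylipin pathway could be matched to a row, since the table names none.

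The control replicates agreed to different degrees. LOX15 in control replicate 2 was 0.738 times its level in replicate 1, a log2 distance of 0.44. Among 1832 transcripts with a control mean within 1.2-fold of its own, the median distance was 0.11, and 97.4% had a smaller one. LOX11 differed by 0.01 on the same scale, a smaller distance than all but 4.64% of transcripts at its level. LOX9 differed by 0.10 and LOX8 by 0.12, below the medians of 0.18 and 0.19 at their levels. LOX11 and LOX9 were higher in control replicate 2, LOX15 and LOX8 in control replicate 1.

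**Figure D5:**
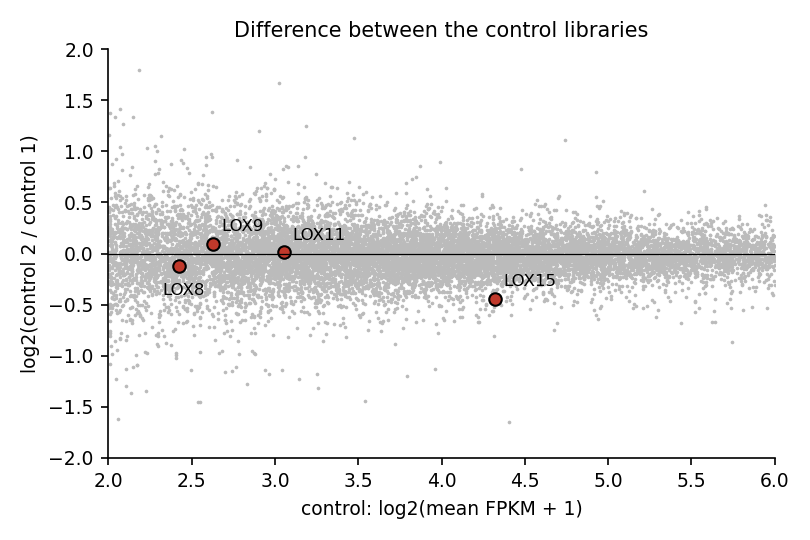
Log2 ratio of control replicate 2 to control replicate 1 (y axis) against the control level as log2(mean FPKM + 1) (x axis), for 12746 transcripts around the levels of the 4 lipoxygenases, of which 7 lie beyond the axis. LOX15, 0.44 below 0, lies at the lower edge of the cloud, while LOX11, LOX9 and LOX8 lie within 0.12 of 0.

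Likeness between transcripts was measured as the Euclidean distance of log2(FPKM + 1) over the 4 libraries. By that measure LOX8 and LOX9 were nearest to each other, at 0.56. LOX11 was nearest to LOX9, at 0.78, and LOX15 to LOX11, at 1.80. The nearest lipoxygenase outside the 4 was LOX3 for LOX8 (0.97), LOX9 (0.86) and LOX11 (1.62), and LOX5 for LOX15 (2.57). The same 4 libraries chose the 4, so that they lie nearest to one another follows largely from the selection. Many unnamed transcripts were as close: 117 lay nearer to LOX8 than LOX9 did, and 296 nearer to LOX15 than LOX11 did. The profile is thus shared with many transcripts of the table.

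The 2 unnamed transcripts nearest to the mean profile of the 4 were Luffa_aegyptiaca15037.t01 and Luffa_aegyptiaca36811.t01, at distances of 0.11 and 0.17. The 4 lipoxygenases themselves lay 0.18 to 1.72 from that mean profile. Of the 48590 unnamed transcripts, 989 lay nearer to it than the farthest of the 4 did. Luffa_aegyptiaca15037.t01 stood at 0.112 and 0.115 FPKM in the heat libraries, against 7.86 and 6.84 FPKM in the controls. Luffa_aegyptiaca36811.t01 stood at 0.103 FPKM in heat replicate 1 and was listed at 0 in heat replicate 2, against 7.16 and 7.1 FPKM in the controls. The table pairs neither with a gene name.

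Plant lipoxygenase genes in tandem clusters can be near-identical. The sources used here do not say to which copy a read that fits several was given. Values of single members are therefore uncertain, and reads moved between copies were not tested as a part of the zeros.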

How the data were processed

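RNA-seq was made from 2 heat-stressed and 2 control samples. The authors deposited 1 table of FPKM values with 1 column per sample and 48619 transcripts. HISAT2 2.2.1, StringTie 2.0 and fastp 0.20.1 are listed in the submitters' processing notes. The sources used here give no genome build, no annotation and no rule for reads that map to several places. Every column matched the title of 1 sample. Depth is unknown, so no counting interval or floor is given.

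With limma 3.58.1 (R 4.3.3), log2(FPKM + 1) was fitted for the 18186 transcripts that averaged 1 FPKM or more. The group was the only term, and variances were moderated along their trend with the mean. Two-sided p-values were adjusted over all of these by Benjamini and Hochberg's method, with a threshold of 0.05. All 4 members passed the abundance filter, each through its control level. With 2 libraries per group, p-values set the group difference against the spread between these libraries, with variances moderated over all transcripts in the fit. The labels call the replicates biological but do not say whether each was a plant of its own, so this spread may be technical.

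The members, lists and rules were chosen with earlier results of these data known. Named were the 4 members, the lipoxygenases just outside the limits, those nearest in profile or needed for ranks, and the 2 nearest unnamed transcripts. Of 21 names of other jasmonate and oxylipin genes, 0 matched a row.

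Alternatives covered a pseudocount of 0.1, no abundance filter, quantile normalization, median-of-ratios rescaling, no trend in the moderation, a replicate block, and leaving out each library in turn.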

Additional observations from a re-analysis of the deposited data

How the results depend on the processing

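None of the alternatives run for them turned the direction of LOX8, LOX9, LOX11 or LOX15, which the limits of selection had already set. With 0.1 added to FPKM their log2 changes were -5.12, -3.83, -6.21 and -7.56, an effect of the number added. After rescaling by the median of ratios, LOX8 stood at -2.27, LOX9 at -2.14 and LOX11 at -2.94, and after quantile normalization at -2.23, -2.14 and -2.89 in that order. The median change of all transcripts was 0.02 and -0.02 under these scalings, against -0.20 as deposited. Under both, LOX8 left the limits of selection, with control means of 3.99 and 3.74 FPKM, so its place among the 4 depends on scaling. The transcripts within those limits then numbered 288 and 300, against 357. Without 1 library at a time that number was 349 to 385 and all 4 lipoxygenases stayed within the limits. In these fits, where a lone sample is taken to vary as the other group does, the log2 changes were -4.52 to -4.10 for LOX15, -3.06 to -3.04 for LOX11, -2.43 to -2.33 for LOX8 and -2.34 to -2.22 for LOX9. The number of all transcripts that fell was 5787 to 7713, or 32% to 42.8% of those tested, over the alternatives that kept the abundance filter, against 7735 or 42.5%. With no filter it was 8434, or 30.7% of a larger number tested. With a replicate block it was 7586, and the changes of the 4 were the same with standard errors of 0.22 to 0.23. Same-numbered libraries deviated with a correlation of -0.068 across transcripts, and the labels do not say that the numbers pair them. The limit that read depth sets on values under 1 FPKM cannot be stated.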

Other observations

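Among the 357 transcripts with at least 4 FPKM in control and under 0.5 FPKM under heat, the 4 lipoxygenases fell into 3 of the 4 possible patterns of zeros. LOX9 was above 0 in both heat libraries, as were 201 of the 357 (56.3%). LOX8 was listed at 0 in heat replicate 1 only, as were 47 (13.2%), and 44 (12.3%) were listed at 0 in heat replicate 2 only. LOX11 and LOX15 were listed at 0 in both.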
